A study of Mus musculus with 2 samples.

Results

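The mir-30 family was described in microRNA sequencing of mouse adrenal gland. Its members were taken by name from the GENCODE M21 annotation as the 6 mir-30 hairpin genes Mir30a, Mir30b, Mir30c-1, Mir30c-2, Mir30d and Mir30e, together with Mir30f, which is annotated on the opposite strand of Mir30e. These were 7 of the 2202 annotated miRNA genes in the tables, chosen by name and not by a threshold on a measured value. The RNA came from the adrenal glands of adult male mice aged 8 to 10 months and was below 30 nucleotides long. The strain is labelled 5xFAD/CAST. The first name is that of a transgenic model of Alzheimer's disease whose transgenes are driven by the neuron-directed Thy1 promoter, and the second that of a wild-derived inbred strain. The labels do not say whether the transgenes were present in the animals used. There was 1 group with 2 libraries, labelled as biological replicates 1 and 2, and no treatment. Both name the same donor record, so the spread between them may be partly technical. With 1 group there was no contrast between conditions, and the data describe how much of each gene was read and how closely the replicates matched.

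A miRNA gene is transcribed as a hairpin, which is cut to a duplex, and either arm (5p or 3p) can be loaded into the silencing complex. The seed, bases 2 to 8 of the mature strand, is the main determinant of which mRNAs are recognised, and mir-30 genes share the seed of their 5p arm. The family is known for keeping epithelial cells differentiated through targets such as Snai1, for roles in fat cell differentiation, and for abundance in kidney and heart. In endothelium it is known to target the Notch ligand Dll4.

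The mature sequences are shown first because they decide which members can be told apart by reads. RefSeq's miRNA table, on build GRCm38.p6, matched 5 of the 7 genes and held no mature sequence for Mir30b and Mir30d. Each sequence runs 5′ to 3′ with the seed in capitals, and the first group holds the 5p arms, with Mir384 added because it is the other gene in that table with this seed.
miR-30a-5p: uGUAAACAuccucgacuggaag
miR-30e-5p: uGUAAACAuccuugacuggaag
miR-30c-5p: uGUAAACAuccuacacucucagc
miR-384-5p: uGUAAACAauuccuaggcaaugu
Counting from 1 at the 5′ end, miR-30a-5p and miR-30e-5p differed by 1 substitution (C13U). miR-30a-5p and miR-30c-5p differed at 5 of 22 positions, all of them after the seed. The 23 bases of miR-30c-5p stood in full in 2 annotated hairpins, Mir30c-1 and Mir30c-2, whereas each of the other arms shown here stood in 1.

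The 3p arms in that table, those of Mir30a, Mir30e, Mir30c-1 and Mir30c-2, fell into 2 seed groups. They are shown because they split these genes by a second criterion. The 3p seeds of Mir30b and Mir30d were not available.
miR-30a-3p: cUUUCAGUcggauguuugcagc
miR-30e-3p: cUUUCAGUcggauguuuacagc
miR-30c-1-3p: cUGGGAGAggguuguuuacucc
miR-30c-2-3p: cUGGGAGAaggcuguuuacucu
The arms of Mir30a and Mir30e again differed by 1 substitution (G18A). Those of Mir30c-1 and Mir30c-2 differed by 3 (G9A, U12C and C22U), so a read of the 3p arm can separate these genes where a full read of the 5p arm cannot.

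Whole hairpins divided Mir30a, Mir30e, Mir30c-1 and Mir30c-2 in the same way. They placed Mir30d with Mir30a and Mir30e, and Mir30b with the Mir30c genes. The longest run shared by 2 hairpins was 14 to 18 bases among Mir30d, Mir30a and Mir30e. It was 18 bases between Mir30b and either Mir30c gene, and 28 bases between Mir30c-1 and Mir30c-2. Between these 2 sets the longest shared run was 11 or 12 bases. Only Mir30c-1 and Mir30c-2 shared 20 bases with another annotated hairpin, namely with each other. The tables give reads that match more than 1 place a line of their own and assign them to no gene, so the counts of Mir30c-1 and Mir30c-2 are lower limits.

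**Figure D1:**
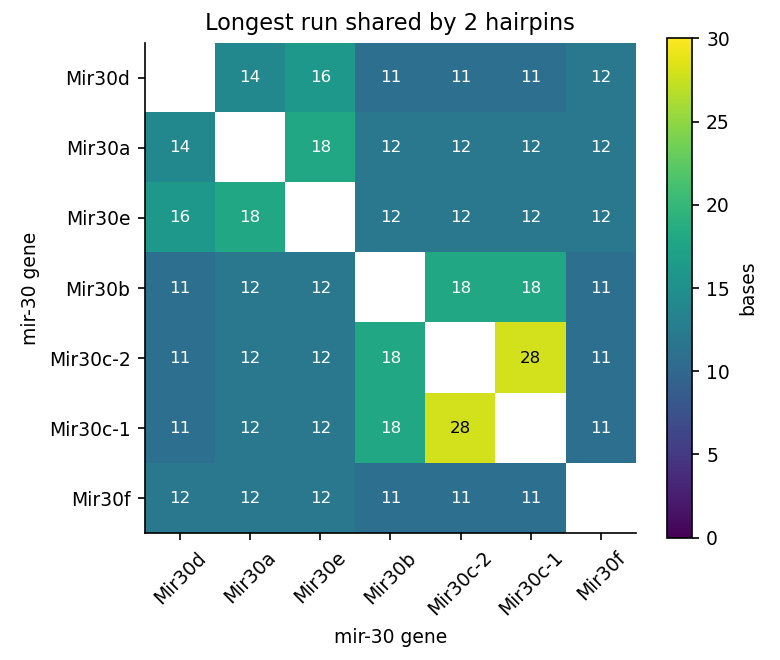
Longest run of identical bases between the annotated hairpins of each pair of mir-30 genes, with both axes listing the genes and the colour and number giving the run in bases. Mir30d, Mir30a and Mir30e share up to 18 bases, Mir30c-1 and Mir30c-2 share 28, and runs between the 2 sets reach 12.

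Levels are sense reads scaled to a total of 1000000 sense reads of all miRNA genes (CPM). Sense totals were 6783227 reads in replicate 1 and 3084602 in replicate 2. In the same order, multimapping reads made up 30.3% and 32.1% of all reads. A read stands for 1 short RNA whatever the length of its hairpin, so CPM was not divided by length. Library preparation captures different short RNAs unequally, and the order of CPM values between genes is therefore not shown to be an order of molecules.

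Mir30d, Mir30a and Mir30e carried nearly all uniquely assigned reads of the family. They held 96.7% of them in replicate 1 and 97.7% in replicate 2, a mean of 97.2% ± 0.716 (SD, n = 2). The other 3 genes with reads, Mir30b, Mir30c-2 and Mir30c-1, held 3.31% and 2.29%. In uniquely assigned reads, the division by level matched the division by hairpin sequence. The match is not independent of sequence, because shared bases themselves lower the counts of Mir30c-1 and Mir30c-2. For Mir30c-1 and Mir30c-2 the low level includes the loss of reads shared by the pair, and how many were lost was not measured. In all, the family's share of sense miRNA reads was 1.71% for replicate 1 (Wilson 95% interval 1.70 to 1.71) against 1.81% for replicate 2 (1.80 to 1.83). These and later intervals cover counting error only, since reads without molecular identifiers are not independent molecules.

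Mir30d was highest, with 6645 CPM in replicate 1 against 7142 CPM in replicate 2, or 6894 ± 351 CPM (SD, n = 2). It ranked 25th by mean among all annotated miRNA genes. Mir30a had 6235 CPM in replicate 1 against 6745 CPM in replicate 2, a mean of 6490 ± 361 CPM and the rank of 27th. The Mir30a range lay between 6235 and 6745 CPM and overlapped that of Mir30d. Within each library Mir30d was 1.07-fold and 1.06-fold above Mir30a, gaps of 410 and 397 CPM, which were smaller than the replicate difference of Mir30a, 511 CPM. Their order was therefore not beyond the replicate spread as scaled here.

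Mir30e, which lies in the Nfyc gene of a subunit of the transcription factor NF-Y, came next, with 3607 CPM in replicate 1 against 3824 CPM in replicate 2. Its mean was 3715 ± 153 CPM (n = 2), and it ranked 35th. Mir30a exceeded it 1.73-fold and 1.76-fold in the replicates and Mir30d exceeded it 1.84-fold and 1.87-fold. Mir30e was thus lower than Mir30d and Mir30a in both libraries, by more than any of these genes differed between the replicates. The reads of Mir30a and Mir30e, whose mature arms differ by 1 base each, together made up 58.0% ± 0.414 of the family. The mismatch setting of the alignment is not given, so how far reads pass between Mir30a and Mir30e is not known.

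In uniquely assigned reads, the other genes with reads stood more than an order of magnitude lower. Mir30b was at 252 CPM (1710 reads) in replicate 1 and 143 CPM (440 reads) in replicate 2, with a mean of 197 ± 77.4 CPM (n = 2). Mir30c-2 was at 203 CPM (1376 reads) in replicate 1 and 177 CPM (545 reads) in replicate 2, with a mean of 190 ± 18.5 CPM. Mir30b lay above Mir30c-2 in replicate 1 and below it in replicate 2, so these genes had no stable order. Mir30c-1 was at 109 CPM (739 reads) in replicate 1 and 96.6 CPM (298 reads) in replicate 2, with a mean of 103 ± 8.72 CPM. It was below Mir30c-2 in both libraries, which differed 1.86-fold and 1.83-fold, and this gap exceeded the replicate spread. That ratio rests on reads assigned to 1 of the Mir30c genes and leaves out those that match both.

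**Figure D2:**
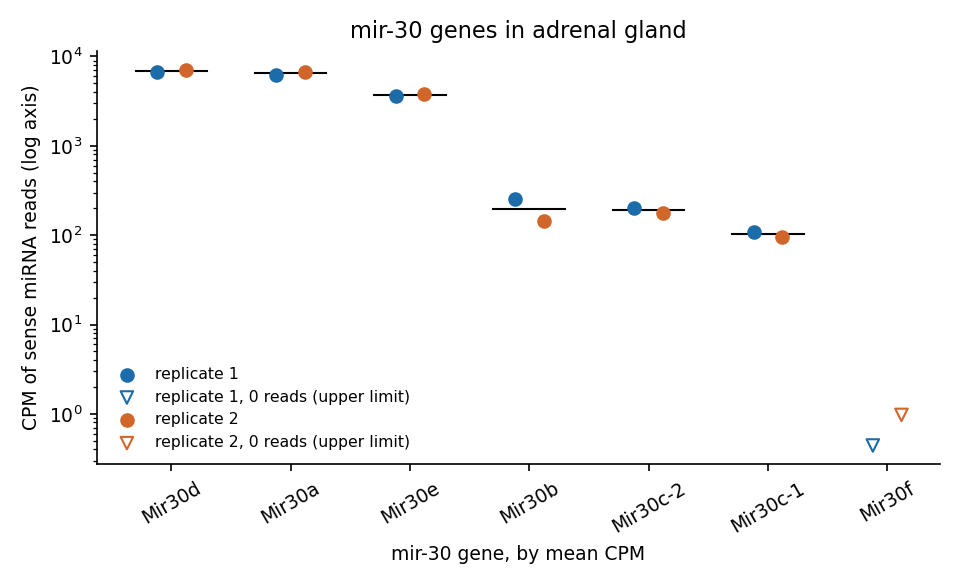
Level of each mir-30 gene as CPM of sense miRNA reads on a log axis, with 1 point per library, a black bar at the mean of the 2 libraries, and open triangles at the upper limit that 0 reads allow. Mir30d, Mir30a and Mir30e sit between 3607 and 7142 CPM, Mir30b, Mir30c-2 and Mir30c-1 between 96.6 and 252 CPM, and Mir30f has no sense reads.

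A pair of genes was called ordered when both libraries placed them alike and both gaps exceeded the larger replicate difference of the pair. The rule takes account of replicate spread and of no other error. Of the 21 pairs of members 18 were ordered, and of the 15 pairs without Mir30f 12 were ordered. The exceptions were Mir30a with Mir30d, Mir30b with Mir30c-1 and Mir30b with Mir30c-2. The pair of Mir30a and Mir30d was ordered under trimmed mean (TMM) scaling and under DESeq2 size factors, because these scalings bring the replicates of both genes closer, and Mir30d was above Mir30a in both libraries throughout.

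By uniquely assigned reads, each of the 3 loci of the family held a gene of the high set and a gene of the low set. On chromosome 15, Mir30d (ENSMUSG00000065437.1, 68341208 to 68341289, minus strand, GRCm38) lies 3697 bases from Mir30b (ENSMUSG00000065476.2, 68337415 to 68337510, minus strand). Mir30d overlaps exons of the noncoding genes Gm20732 and Gm37296, and Mir30b an exon of Gm26621. On chromosome 4, Mir30e (ENSMUSG00000065409.1, 120772606 to 120772697, minus strand) and Mir30c-1 (ENSMUSG00000065490.1, 120769534 to 120769622, minus strand) lie in introns of Nfyc, 2983 bases apart. On chromosome 1, Mir30a (ENSMUSG00000065405.3, 23272269 to 23272339, plus strand) lies outside other annotated genes of its strand. Mir30c-2 (ENSMUSG00000065567.1, 23291701 to 23291784, plus strand) lies 19361 bases from it and overlaps an exon of the noncoding Gm27028.

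In uniquely assigned reads, the high gene exceeded its neighbour at each of the 3 loci in both libraries. Mir30d stood 26.4-fold above Mir30b in replicate 1 (exact 95% interval 25.1 to 27.7) and 50.1-fold in replicate 2 (45.6 to 55.2), a mean ratio of 38.2 ± 16.8 (SD, n = 2). For Mir30e and Mir30c-1 the ratio was 33.1 (30.8 to 35.7) in replicate 1 and 39.6 (35.3 to 44.5) in replicate 2, a mean of 36.3 ± 4.58. Mir30a and Mir30c-2, which exceed the 10 kb limit set for neighbours and were added after the data had been seen, gave 30.7 (29.1 to 32.5) and 38.2 (35.1 to 41.6), a mean of 34.5 ± 5.26. The ratio of Mir30d to Mir30b was the lowest of the 3 in replicate 1 and the highest in replicate 2. Each ratio was higher in replicate 2, and the intervals of the replicates overlapped for Mir30e and Mir30c-1 alone. Mir30d and Mir30b were thus not read in equal amounts. At the loci with a Mir30c gene the same holds for uniquely assigned reads only. By the criterion of 20 shared bases, the ratios with a Mir30c gene are upper limits, since its count is a lower limit, and the ratio of Mir30d to Mir30b is not so limited.

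By locus, the division of uniquely assigned family reads differed little between the replicates. The chromosome 15 pair held 40.5% and 40.2% of family reads in replicates 1 and 2, the chromosome 1 pair 37.8% and 38.2%, and the chromosome 4 pair 21.8% and 21.6%. As means these were 40.3% ± 0.187, 38.0% ± 0.304 and 21.7% ± 0.118 (SD, n = 2). By these reads the pair in Nfyc had the lowest share in both libraries. Reads common to Mir30c-1 and Mir30c-2 belong to the chromosome 4 and chromosome 1 pairs and are missing from these shares, so the order of the loci is not shown for all reads.

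**Figure D3:**
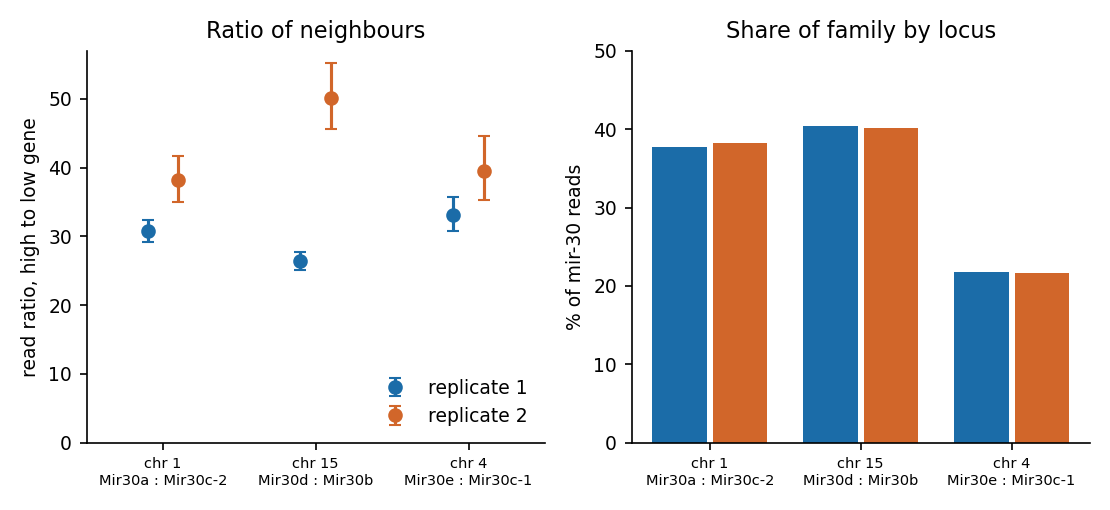
Left, the ratio of uniquely assigned reads of the high to the low mir-30 gene at each locus, with points for the libraries and bars for exact 95% intervals. Right, the percentage of uniquely assigned mir-30 reads from each locus in each library (blue, replicate 1, and orange, replicate 2). Ratios run from 26.4 to 50.1 and are higher in replicate 2 at each locus, while the locus shares differ little between the replicates.

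Mir30f had 0 sense reads in both libraries. With 3 reads as the most that a count of 0 allows, its level was at most 0.442 CPM in replicate 1 and at most 0.973 CPM in replicate 2. Mir30f (ENSMUSG00000105585.1) covers the same 92 bases of chromosome 4 as Mir30e, 120772606 to 120772697, on the plus strand. Its mature sequence in RefSeq is shown because it resembles a 5p arm of the family, with the seed moved by a base.
miR-30f: gUAAACAUccgacugaaagcuc
Its first 10 bases matched miR-30e-5p from base 2 of that arm, and it overlaps miR-30e-3p by 19 bases on the opposite strand. RefSeq held no other mature sequence with its seed.

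The column for both strands hid Mir30e altogether. There, Mir30e and Mir30f had 0 reads in both libraries, because a read in a place covered by 2 genes is counted as ambiguous when strand is ignored. The strand column opposite to Mir30f held 24466 reads in replicate 1 and 11794 in replicate 2, exactly the sense counts of Mir30e. These reads made up 2.80% and 4.30% of the ambiguous reads of replicates 1 and 2. Without them the family's share was 1.54% and 1.57% of the reads in that column. The other 5 genes had the same count with and without regard to strand and 0 reads on the opposite strand.

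Replicate differences were small for the 3 abundant genes and larger for Mir30b. Each is the log2(CPM + 1) of replicate 2 minus that of replicate 1. A call needed an absolute difference of 1 or more and, from Fisher's exact test (two-sided, on reads), a p below 0.05 after Benjamini-Hochberg adjustment. The test sets 2 libraries against each other, and neither animals nor conditions. Of the 6 members tested, 0 were called, beside 10.7% of the 280 genes that reached a mean of 10 CPM. An adjusted p under 0.05 alone was reached by 5 of the 6 members and by 69.3% of all genes tested, so most genes differed by more than read counting. Mir30f, with no reads, was not tested.

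Mir30a differed by 0.11 (exact 95% interval of the log2 ratio 0.09 to 0.14), Mir30d by 0.10 (0.08 to 0.13) and Mir30e by 0.08 (0.05 to 0.12). The sign of these 3 values was not stable, being negative for all of them under DESeq2 size factors and for Mir30e under TMM scaling. Scaling moved the median difference of all 280 genes from 0.01 to −0.09 under TMM and to −0.12 under DESeq2 size factors. Mir30c-1 differed by −0.17 (−0.37 to 0.02) and Mir30c-2 by −0.20 (−0.35 to −0.06). Both kept a negative sign under these scalings, and the interval of Mir30c-1 includes 0.

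Mir30b was lower in replicate 2 by 0.82 on the log2 scale, with an interval of the log2 ratio from −0.98 to −0.67 and an adjusted p of 1.73e-28 in Fisher's exact test. It did not reach the limit of 1 and was not called, but it passed when the limit was lowered to 0.5, where 28.2% of all genes passed. Among the 280 genes it stood at the 7.5th percentile, inside the central 95% of −1.46 to 1.22. Its neighbour Mir30d stood at 0.10. The log2 ratio of Mir30d to Mir30b, taken without a pseudocount, was higher by 0.93 in replicate 2 than in replicate 1. Markers of other cell types moved in both directions between these libraries. The endothelial Mir126a stood at −0.82 and the liver Mir122 at −2.14. Of the 3 red cell genes Mir451a stood at −1.46, Mir144 at −0.03 and Mir486 at −0.15. The 4 neuroendocrine genes stood at 0.49 for Mir375, 0.34 for Mir7-2, −0.04 for Mir7b and −0.10 for Mir7-1. The part of these cell types in the value of Mir30b was not tested.

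**Figure D4:**
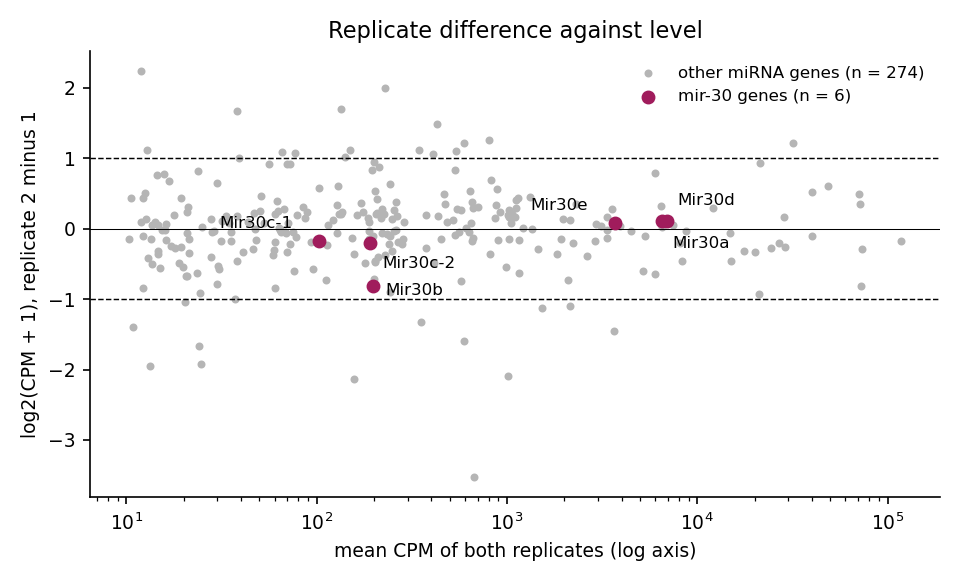
Difference of log2(CPM + 1), replicate 2 minus replicate 1, against mean CPM on a log axis, with 1 point per miRNA gene that reached a mean of 10 CPM and the mir-30 genes in colour. The dashed lines mark the limit of 1 in either direction, and the 6 mir-30 genes lie between them, with Mir30b lowest at −0.82.

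Across the 6 genes the median replicate difference was −0.04, against 0.01 for all 280 genes, with 3 members higher and 3 lower. The median absolute difference was 0.14 for the members and 0.28 for all genes. All 6 members reached a mean of 100 CPM, as did 173 of the 280 genes, so these medians are not matched for level. The family's summed share, at 1.71% and 1.81%, was set mainly by the 3 abundant genes and hence moved little when Mir30b moved.

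Among genes outside the family, RefSeq's table paired 2 with a mir-30 seed, and both were low. Mir384, on chromosome X, which carries the 5p seed, had 13.4 CPM in replicate 1 against 13.9 CPM in replicate 2 (13.7 ± 0.371 CPM). Mir30e, which follows Mir30d and Mir30a in level, stood 269-fold and 274-fold above it. Mir6958, whose 5p arm has the 3p seed of the Mir30c genes, had 1 read in replicate 1 and 0 in replicate 2. Among the genes that this table pairs with the 5p seed, nearly all reads were thus from mir-30 genes, although a hairpin count does not separate its arms.

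In level over both libraries, the gene nearest to Mir30a was Mir151, at 6445 and 6577 CPM, with a Euclidean distance in log2(CPM + 1) of 0.06. For Mir30d the nearest were Mir30a at a distance of 0.12 and Mir151 at 0.13. This measure rests on 2 libraries of 1 tissue and compares levels only.

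In uniquely assigned reads, the leading gene held a smaller part in the mir-30 family than in 3 other families with several loci. Mir30d, its leading gene, held 39.0% and 39.4% of family reads in replicates 1 and 2. By comparison Mir26b held 99.9% of mir-26 reads in both replicates, Mir29a 80.4% and 89.5% of mir-29 reads, and Mir181c 45.5% and 51.4% of mir-181 reads. In both libraries the value of mir-30 lay below those of the 3 other families by more than the replicate differences. No test over 2 libraries was made. Most genes of the compared families share 20 bases with another hairpin (2 of 3 in mir-26, 3 of 4 in mir-29, 4 of 6 in mir-181). Their counts are lower limits, as are those of Mir30c-1 and Mir30c-2. The order of the families by leading share is therefore not shown for all reads. The families also differ in size, with 7 genes in mir-30 against 3 in mir-26, 4 in mir-29 and 6 in mir-181. The leading share was not adjusted for size. Beside 1.71% and 1.81% for mir-30, the summed shares of miRNA reads in replicates 1 and 2 were 1.91% and 4.44% for mir-26, 1.09% and 0.960% for mir-29, and 0.185% and 0.193% for mir-181.

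The labelled tissue was checked against markers. The neuroendocrine genes Mir375, Mir7-1, Mir7-2 and Mir7b, known from cells like those of the medulla, summed to 6.36% and 8.72% of miRNA reads, and the endothelial Mir126a to 9.26% and 5.25%. The 5 kidney genes, listed because that neighbouring organ is rich in mir-30, summed to 0.0111% and 0.00999%. Of these Mir194-1, which shares 20 bases with Mir194-2, had 0 reads in both libraries, Mir192 was at 28.9 ± 0.467 CPM and Mir204 at 60.0 ± 5.58 CPM. The 5 adipose genes summed to 0.370% and 0.412%, mostly from Mir378a, and the 5 epithelial genes of the mir-200 family to 0.00457% and 0.00350%. The 3 red cell genes summed to 0.556% and 0.215%. The liver Mir122 alone held 0.0257% and 0.00577%, more than the kidney genes in replicate 1 and less in replicate 2. The gonad gene Mir202 held 0.00190% and 0.00227%. Of the 6 striated muscle genes, 5 had 0 reads, all of which share 20 bases with another hairpin so that 0 sets no limit. Which cell types the mir-30 reads came from cannot be told from whole tissue, where fewer cells of a type and less RNA per cell give the same change.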

How the data were processed

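Small RNA of 2 adrenal libraries of 1 group was measured. The authors deposited, for each library, raw read counts per miRNA gene for both strands, the gene's strand and the opposite strand. Per the file headers deposited beside the tables, the assembly was mm10 and the annotation GENCODE M21. Not given in the sources used here are the aligner and how reads were trimmed or allowed to mismatch. No header marks the strand columns, which were identified from their layout and totals. The 4 mapping lines (unmapped, multimapping, outside genes, ambiguous) stayed out of the totals.

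Sense counts were scaled to 1000000 sense miRNA reads, with a pseudocount of 1 on the log2 scale. Names, positions and hairpins came from GENCODE M21, and mature sequences from RefSeq (GRCm38.p6). Of the 2202 annotated genes, 1084 share 20 bases with another hairpin. Fisher's exact test was run in SciPy 1.17.1 on 280 genes of mean CPM of at least 10, with Benjamini-Hochberg adjustment. It was tried on reads simulated with counting error only. That trial does not cover the further spread between these libraries. Alternatives used edgeR 4.0.16 (TMM factors), DESeq2 1.42.0 (size factors), other strand columns, denominators, pseudocounts and filters, and each replicate left out. The planned limit of 10 kb for neighbours took in 2 of the 3 pairs, and the third was added at 50 kb. The members, comparison families and marker lists were chosen with earlier results of these data known. Named genes are the 7 members, genes sharing a mature seed with them, the 2 genes nearest in level to each of the 2 highest members, and members of the lists.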

Additional observations from a re-analysis of the deposited data

How the results depend on the processing

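The family's share, 1.76% of sense miRNA reads as a mean of the replicates, was 1.56% in the column for both strands, where Mir30e is lost. It was 1.64% of uniquely mapped reads, 0.869% of all reads, and 1.99% when genes with 20 shared bases were left out of the family and the total. Leaving out a replicate gave 1.71% to 1.81%. The count of ordered pairs was 18 of 21 as reported, 19 under TMM scaling and under DESeq2 size factors, 18 in the column for both strands, 12 of 15 among members of at least 10 CPM, and 9 of 10 among members without 20 shared bases, where fewer pairs were compared. The 18 pairs in the column for both strands were not the same 18. There Mir30e and Mir30f were not ordered, while Mir30a and Mir30d were. With 0 reads, Mir30e lay below Mir30b, Mir30c-1 and Mir30c-2 there, the reverse of their order in sense reads. It also gave no ratio to Mir30c-1. Leaving out a replicate gave ratios of 26.4 to 50.1 for Mir30d to Mir30b and 33.1 to 39.6 for Mir30e to Mir30c-1.

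Over all genes, 30 differed between the replicates, beside 19 at a mean CPM of at least 100, 50 with at least 1 read in either library and 79 at a log2 limit of 0.5, settings that change how many genes are tested or how large a difference is needed. The split was 17 higher and 13 lower as scaled here, 12 and 17 under TMM scaling, and 8 and 17 under DESeq2 size factors. Of 47 recomputed differences of members, 42 kept their sign and side of the limit. Changes of the filter or of the limit leave the values as they are, so only part of the 47 could change sign. The 4 that changed sign did so under TMM scaling or DESeq2 size factors. Mir30a at −0.023, Mir30d at −0.033 and Mir30e at −0.053 turned negative under DESeq2 size factors, Mir30e also at −0.018 under TMM scaling, and Mir30b was called at a limit of 0.5. No paired analysis was possible because there was 1 group. Depth limits Mir30f, with 0 sense reads, to an upper bound, and among the members with reads Mir30c-1 had the fewest, 739 and 298.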
